A study of Oryctolagus cuniculus with 134 samples.

Results

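The effect of cardiac irradiation on the aorta of cholesterol-fed rabbits was examined in 13 RNA libraries out of the 134 of the series, chosen by their tissue and treatment labels. The 7 IR/CHT libraries came from male New Zealand White rabbits that ate a chow with 0.3% cholesterol, drank vitamin D2 at 25000 U per day per 2.5 kg for the first 15 days, and received 24 Gy of X-rays to the aortic valve and thoracic aorta in 3 fractions of 8 Gy, 48 h apart, after 8 weeks of diet. The 6 CHT libraries came from rabbits given the same diet and vitamin D2 without irradiation. The protocol began at 12 weeks of age and lasted 16 weeks, and the aortas were collected at its end. Libraries of 7 chow-fed rabbits without vitamin D2 (Ctrl) are set beside both groups. Another 7 libraries, of rabbits on a diet with 5% lard and the same vitamin D2, entered only the common fit. No library from an irradiated rabbit on chow was used here, so the values describe irradiation on top of an atherogenic diet. Each library is 1 ring of aorta from 1 rabbit, the rabbits differ between groups, and all aorta libraries were on plate 2.

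Ionizing radiation breaks DNA, and the transcription factor p53 is stabilized in damaged cells, where it switches on genes for repair, cell cycle arrest and death. The wall of a healthy artery consists mainly of contractile smooth muscle cells. In atherosclerosis, lipid-loaded macrophages collect in the inner wall, and smooth muscle cells lose part of their contractile gene expression.

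Between 16923324 and 20915814 read pairs per IR/CHT library and between 18268531 and 20739443 per CHT library lay on genes, and the totals did not differ beyond the spread of the libraries (two-sided exact permutation test, p = 0.832, where the smallest possible p was 0.000583). Markers of smooth muscle, the main cell type of the wall, were detected in every library. The smooth muscle marker level, the mean log2 CPM of the listed genes, was 9.85 to 11.2 in CHT and 8.89 to 10.7 in IR/CHT. MYH11, the smooth muscle myosin heavy chain, had from 23070 to 58420 CPM in CHT and from 8619 to 45360 CPM in IR/CHT. CPM are counts scaled to a common library size and not by gene length, so that they are levels to be compared between libraries and not between genes.

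Some IR/CHT libraries also carried heart muscle RNA. MYH7, the heavy chain of slow and ventricular heart myosin, ranged from 1.5 to 12.1 CPM in CHT with a median of 2.91 CPM, and in IR/CHT its lowest value was 14.8, its median 46.1 and its highest 2123 CPM. The highest value was that of library L566, and the next, 247.5 CPM, that of L580. Every IR/CHT library lay above every CHT library, and the Ctrl libraries, from 1.61 to 29.7 CPM, overlapped both. MB, the oxygen-binding protein of muscle, stood at 65.0 CPM in L566 and between 0.550 and 1.401 CPM in the other IR/CHT libraries, against 0 to 0.569 CPM in CHT. Of 40 listed heart muscle genes, 31 were found by symbol and 22 were tested. Of these 22, 7 rose in IR/CHT (MYH7, MYL2, MYL4, MYBPC3, ACTC1, MB and MYL3), against 0.162% of all genes. Of the 22, 16 had a log2 fold change above 0 (51.7% of all genes), and 3 had IR/CHT libraries that all lay above CHT (0.365% of all genes). At an unadjusted p under 0.05, 10 were higher (45.5%, against 11.7% of all genes) and 3 lower (13.6%, against 11.1%). The 3 were SLC8A1 (-0.49), CACNA2D1 (-0.45) and PLN (-1.15), with adjusted p-values of 0.0589, 0.0855 and 0.101, and PLN is also on the list of contractile genes of smooth muscle. DESeq2 called 7 of the 22 higher and 1 lower, where it called 1.9% of all genes higher and 1.41% lower. The level of the list ran from 2.35 to 3.15 in CHT and from 2.99 to 4.32 in IR/CHT without L566, which reached 6.17. The listed genes TCAP, NKX2-5 and SMPX had no read in any CHT library, and TCAP had none in any IR/CHT library. L566 also had the lowest smooth muscle marker level (8.89, against 9.97 to 10.7 in the other IR/CHT libraries) and the highest macrophage marker level of its group (6.46). Results without L566 and L580, and from a fit with the heart muscle level as a covariate, are given below.

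**Figure D1:**
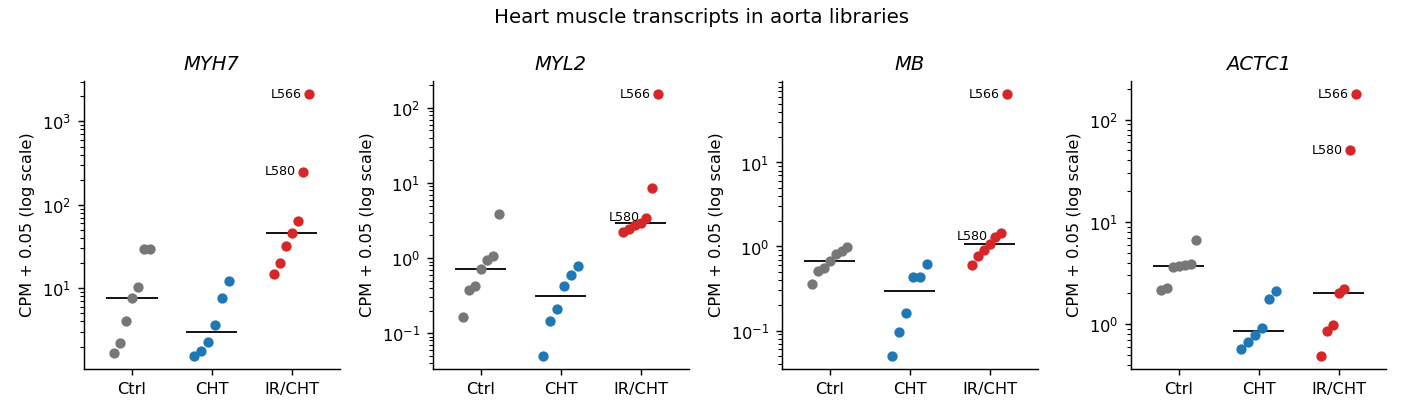
CPM plus 0.05 on a log axis for MYH7, MYL2, MB and ACTC1 in the 7 Ctrl, 6 CHT and 7 IR/CHT aorta libraries, 1 point per library, with the median as a line. Library L566 lies far above the rest in all 4 panels, and L580 is second in MYH7 and ACTC1.

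In 1 edgeR quasi-likelihood model of the 27 aorta libraries, 14777 genes were tested, and differentially expressed genes (DEGs) had a Benjamini-Hochberg adjusted p under 0.05 and a fold change over 1.5. Between IR/CHT and CHT there were 88 DEGs, or 0.596% of the genes tested. Of these, 24 rose (0.162% of genes tested) and 64 fell (0.433%). In the comparisons with Ctrl, 2863 genes (19.4%) were DEGs in CHT and 5070 (34.3%) in IR/CHT. These comparisons share the Ctrl libraries. At an unadjusted p under 0.05, 1732 genes (11.7%) were higher and 1638 (11.1%) lower in IR/CHT than in CHT. Among the 24 that rose, 8 belonged to the lists of heart or skeletal muscle genes, and MYOM2 and NRAP, which are also muscle genes, were not on a list. ENSOCUG00000016777 and ENSOCUG00000033996, which have no symbol in the files, had their highest values in L566 (1843 and 1040 CPM) and the next in L580 (314.1 and 189.8 CPM). The median log2 fold change of all genes was 0.02.

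The number of DEGs rested on single libraries. Without L566 it was 4 (STARD13, PDE3A, RASL11A and GPC4, all lower), and without both L566 and L580 it was also 4, with SLITRK3 in place of RASL11A. Every other DEG named below lost its call in both fits. Without the CHT library L560 there were 2 DEGs, and without the IR/CHT library L579 there were 661. With the heart muscle level of each library as a covariate there was no DEG, and 1059 genes had an unadjusted p under 0.05. DESeq2 on the same libraries gave 535 DEGs, 57.4% of them higher, against 27.3% with edgeR. DESeq2 thus called 1.9% of the genes it tested higher and 1.41% lower, and its counts for gene lists are to be read against these shares. The median of the heart muscle list, 1.17 in all libraries, was 0.66 without L566 and 0.21 without L566 and L580. With the heart muscle covariate it was 0.017. That covariate is the mean level of the same list, so that this last median was largely fixed by construction. The log2 fold change of MYH7 was 6.25 in all libraries, 3.88 without L566 and 2.88 without both.

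DDB2 and PHLDA3, both activated by p53, rose after irradiation. Of 38 listed p53 targets, 25 were found by symbol and 23 were tested. Among these 23, 2 rose and none fell with edgeR, against 0.162% of all genes that rose, and 6 rose and none fell with DESeq2, against 1.9% of all genes. A log2 fold change above 0 was seen in 22 of 23, against 51.7% of all genes, the median was 0.51, against 0.02, and 11 had an unadjusted p under 0.05 in the higher direction, against 11.7% of all genes. The level of the list was between 2.96 and 3.15 in Ctrl, between 3.25 and 3.86 in CHT and between 3.86 and 4.38 in IR/CHT. Neither DEG of the list passed without L566, and no gene of the list passed with any of 3 covariates. The median was 0.47 without L566 and 0.48 without L566 and L580. It was 0.421 with the heart muscle level, 0.325 with the macrophage level and 0.275 with the smooth muscle level as a covariate. In these 3 covariate fits, 8, 6 and 6 of 23 were higher at an unadjusted p under 0.05 and none lower. Over all 14777 genes, 1059, 1174 and 1162 had such a p there in either direction.

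DDB2, which recognizes UV-type damage in nucleotide excision repair, had a lowest, median and highest level of 14.1, 16.1 and 18.6 CPM in CHT and of 22.1, 25.2 and 29.0 CPM in IR/CHT. Its groups did not overlap, as for 0.365% of all genes in the higher direction. DDB2 rose by 0.65 ± 0.14 (SE) on the log2 scale (edgeR adjusted p = 0.0288), and the change was 0.66 without L566 and L580, with an adjusted p of 0.103 (range over 24 alternatives 1.78e-05 to 0.493). PHLDA3, an inhibitor of AKT and a direct p53 target, had 1.24, 3.82 and 5.11 CPM in CHT and 5.23, 9.22 and 26.6 CPM in IR/CHT. It rose by 1.84 ± 0.43 (adjusted p = 0.0405), and the change was 1.85 without L566 and L580, with an adjusted p of 0.121 (range 0.000616 to 0.574). Between CHT and Ctrl the log2 differences were 0.00 for DDB2 and 0.02 for PHLDA3, and neither passed the test (adjusted p = 0.993 and 0.981).

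XPC, the partner of DDB2 in damage recognition, had 109, 147.2 and 169.1 CPM in CHT and 197.2, 211.1 and 232.8 CPM in IR/CHT. Its groups did not overlap either. The log2 fold change of 0.57 ± 0.12 had an adjusted p of 0.0296 but stayed under the fold threshold. ZMAT3, a p53-induced RNA-binding protein, had 21.4, 26.4 and 31.0 CPM in CHT and 31.7, 34.4 and 51.2 CPM in IR/CHT, with a log2 fold change of 0.59 ± 0.15 and an adjusted p of 0.0516. SESN2, a stress-response protein, and EDA2R, a receptor of the TNF family, were named after their values were seen. Their libraries did not overlap between groups, with 0.220 to 3.26 against 3.27 to 9.55 CPM for SESN2 and 4.53 to 9.72 against 9.97 to 18.8 CPM for EDA2R, and their adjusted p-values were 0.0973 and 0.101. For these 2 genes CHT was already above Ctrl, by 1.95 (SESN2) and 1.97 (EDA2R) on the log2 scale. CDKN1A, MDM2 and GDF15 were not found by symbol. Of 31 genes for DNA damage sensing and repair, no gene passed the test in edgeR or DESeq2. In edgeR none was higher and 1 lower (3.23%) at an unadjusted p under 0.05, against 11.7% and 11.1% of all genes. The median of the list was -0.06.

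**Figure D2:**
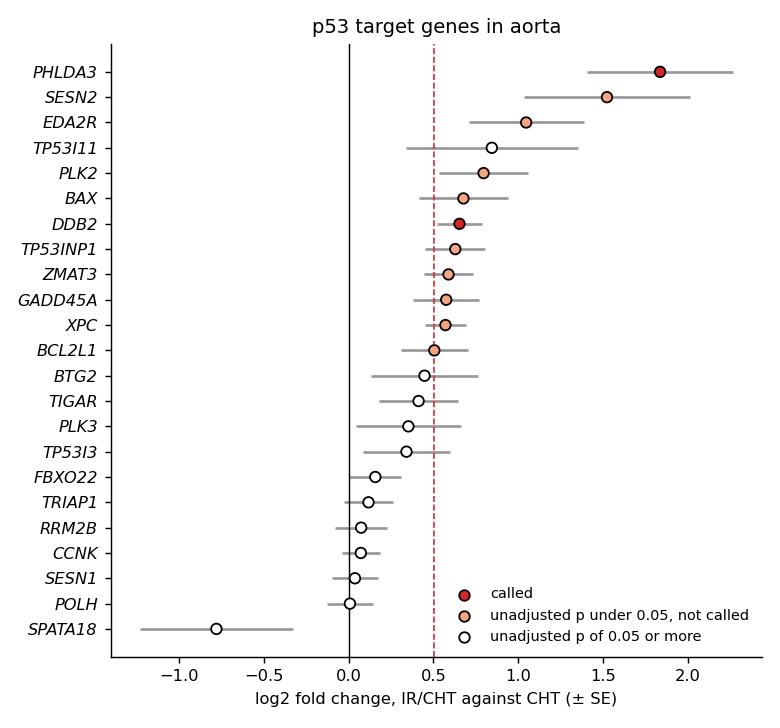
Log2 fold change of IR/CHT against CHT with its standard error for the 23 p53 target genes tested in aorta, the dashed line marking their median of 0.51. DDB2 and PHLDA3 were called, and SPATA18 alone lies below 0.

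Of 36 listed contractile genes of smooth muscle tested, 4 fell (ADRA1A, FHL1, ACTG2 and MYOCD) and none rose with edgeR, against 0.433% of all genes that fell. With DESeq2, 12 fell and 1 rose, against 1.41% and 1.9% of all genes. At an unadjusted p under 0.05, 25 were lower and 1 higher (all genes: 11.1% and 11.7%), and the median log2 fold change was -0.61. Without L566 and L580 the median was -0.52, 20 were lower at an unadjusted p under 0.05, and no gene of the list passed the test. Over all genes in that fit, 2351 of 14852 had such a p in either direction. The median was -0.455 with the heart muscle level, -0.323 with the macrophage level and -0.19 with the smooth muscle level as a covariate. No gene of the list passed in these fits. The genes of the smooth muscle level are all on this list, so that the smaller median of that fit was largely fixed in advance. The level of the list was 7.82 to 8.67 in CHT, 7.05 to 8.30 in IR/CHT and 8.58 to 9.15 in Ctrl. In these bulk samples, fewer smooth muscle cells and less contractile RNA per cell cannot be told apart. The macrophage marker level moved the other way, from 4.26 to 5.56 in CHT to 4.96 to 6.46 in IR/CHT, and the fit with that level as a covariate left 2 DEGs among all genes.

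STARD13, a GTPase-activating protein that switches off RhoA, had 185.99, 202.03 and 238.03 CPM in CHT and 84.7, 111.4 and 151.1 CPM in IR/CHT. The groups did not overlap, as for 0.568% of all genes in the lower direction, and Ctrl lay with CHT, at a median of 192.4 CPM. STARD13 had the smallest p-value of the comparison, with a log2 fold change of -0.83 ± 0.11 (adjusted p = 0.000977). PDE3A, a phosphodiesterase that breaks down cAMP in vascular smooth muscle, had 196.4, 228.6 and 254.7 CPM in CHT and 69.9, 117.4 and 146.4 CPM in IR/CHT, a log2 fold change of -0.97 ± 0.15 (adjusted p = 0.00373). STARD13 and PDE3A were DEGs without any 1 of the 13 libraries and in 23 of 24 refits, all but that with the heart muscle covariate, where the adjusted p-values were 0.234 (STARD13) and 0.493 (PDE3A). No gene passed a test against a fold change of 1.5 itself.

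ADRA1A, an adrenergic receptor that triggers contraction, had 11.3, 17.3 and 27.9 CPM in CHT and 1.96, 5.62 and 9.38 CPM in IR/CHT. It fell by 1.75 ± 0.32 on the log2 scale (adjusted p = 0.0204). FHL1, a LIM protein of the muscle cytoskeleton, had 357.5, 567.8 and 685.8 CPM in CHT and 126.8, 274.1 and 293.4 CPM in IR/CHT, and fell by 1.21 ± 0.24 (adjusted p = 0.0204). Neither overlapped between groups. ACTG2, a smooth muscle actin, fell by 1.04 ± 0.25 (adjusted p = 0.0419), with 517.6 to 960.4 CPM in CHT and, in IR/CHT, 100.7 CPM in L566 and 325.7 to 439.8 CPM in the others.

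MYOCD, the coactivator that drives the contractile program through SRF, had 188.3, 266.4 and 481.7 CPM in CHT and 52.7, 118.6 and 263.5 CPM in IR/CHT, with overlap. It fell by 1.16 ± 0.28 (adjusted p = 0.0432). ACTA2, alpha smooth muscle actin, had 4318, 6698 and 10240 CPM in CHT and 1095, 3134 and 6638 CPM in IR/CHT, with a log2 fold change of -1.02 ± 0.27 that did not pass (adjusted p = 0.0625). The log2 fold change of MYH11 was -0.71 ± 0.26 (adjusted p = 0.132). Without L566 the log2 fold changes were -1.60 for ADRA1A, -1.10 for FHL1, -0.88 for ACTG2, -1.02 for MYOCD and -0.86 for ACTA2, and their adjusted p-values ran from 0.0513 to 0.103.

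**Figure D3:**
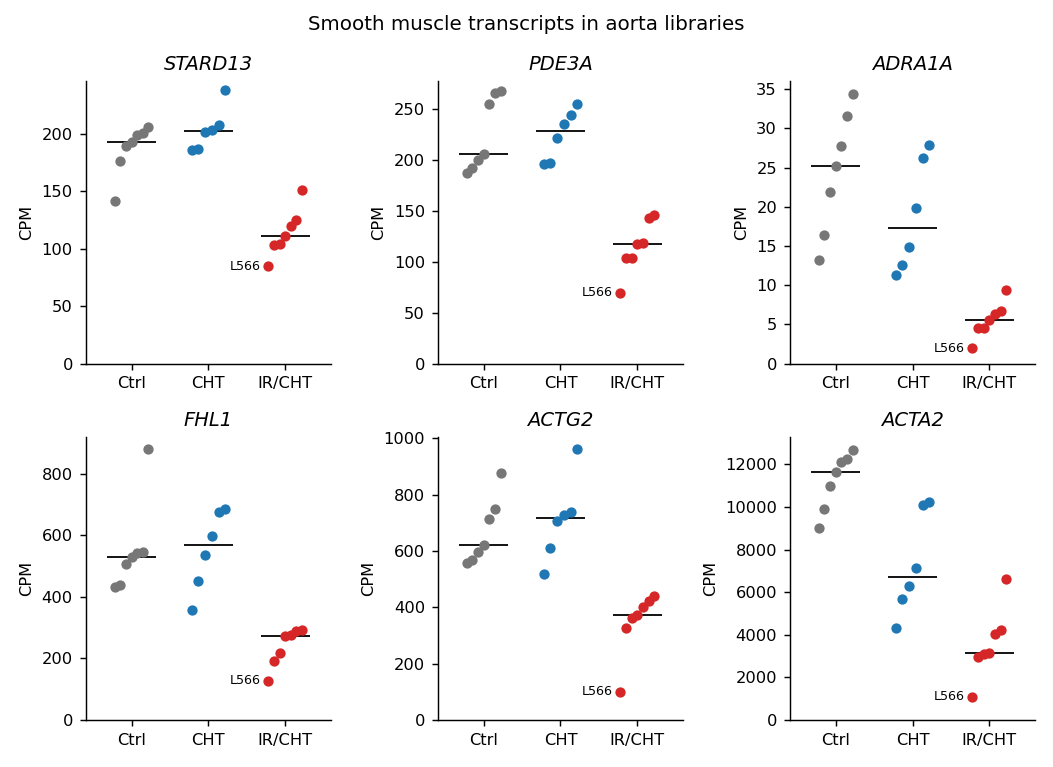
CPM of STARD13, PDE3A, ADRA1A, FHL1, ACTG2 and ACTA2 in the 7 Ctrl, 6 CHT and 7 IR/CHT aorta libraries, 1 point per library, with the median as a line. In the first 5 panels all IR/CHT libraries lie below all CHT libraries, and L566 is the lowest in all 6.

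TEAD1, the DNA-binding partner of YAP in the Hippo pathway, had 48.2, 62.3 and 75.2 CPM in CHT and 27.2, 41.0 and 51.7 CPM in IR/CHT, a log2 fold change of -0.67 ± 0.13 (adjusted p = 0.0204). RASL11A, a small GTPase, had 23.5, 31.4 and 35.1 CPM in CHT and 7.59, 11.6 and 21.6 CPM in IR/CHT, without overlap, and fell by 1.28 ± 0.22 (adjusted p = 0.0163). SLITRK3, a membrane protein known from synapses, fell by 1.59 ± 0.28 (adjusted p = 0.02), from 10.7 to 20.5 CPM in CHT to 2.49 to 9.14 CPM. Other genes that fell were named after their values were seen. They include the TEAD cofactor VGLL3 (-0.79), the transcription factors MEIS1 (-0.77) and ZEB1 (-0.89), the guidance protein SEMA3C (-0.96) and the serotonin receptor HTR2A (-1.0), with adjusted p-values from 0.0295 (VGLL3) to 0.0491 (HTR2A). MEIS1, ZEB1 and SEMA3C also had negative log2 differences between CHT and Ctrl, of -0.56, -0.43 and -0.66, while that of VGLL3 was 0.51. Without L566, the log2 fold changes of TEAD1, VGLL3, MEIS1, ZEB1, SEMA3C and HTR2A were -0.59, -0.75, -0.68, -0.77, -0.85 and -1.05, with adjusted p-values from 0.0558 (TEAD1) to 0.0865 (HTR2A).

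Of 35 genes for elastic fibres, proteoglycans and matricellular proteins, 1 fell with edgeR (FBN1), against 0.433% of all genes, while DESeq2 called 3 higher and 5 lower, against 1.9% and 1.41%. At an unadjusted p under 0.05, 4 of the 35 were higher and 7 lower, against 11.7% and 11.1% of all genes, and the median was -0.03. Of 27 matrix proteases and inhibitors, 1 fell with edgeR (ADAMTS12) and 3 with DESeq2 (1.41% of all genes), 5 were higher and 5 lower at an unadjusted p under 0.05, and the median was 0.13. GPC4, a cell surface heparan sulfate proteoglycan, had 27.2, 36.4 and 36.9 CPM in CHT and 13.8, 20.3 and 25.2 CPM in IR/CHT, and fell by 0.73 ± 0.13 (adjusted p = 0.0191). It was a DEG without any 1 of the 13 libraries except L560, and also without L566 and L580 together (adjusted p = 0.0331). FBN1, fibrillin of the elastic fibre, fell by 0.60 ± 0.13 (adjusted p = 0.0328), from 2315 to 3350 CPM in CHT to 1369 to 2469 CPM. ITGA1, a collagen-binding integrin subunit, fell by 0.69 ± 0.14 (adjusted p = 0.0289), and ANTXR1, another receptor for collagen, by 0.74 ± 0.15 (adjusted p = 0.0277). FERMT2, an activator of integrins, was named after its values were seen and fell by 0.85 ± 0.20 (adjusted p = 0.0412). ADAMTS12, a matrix protease, fell by 0.68 ± 0.16 (adjusted p = 0.0386). Without L566, the log2 fold changes of FBN1, ITGA1, ANTXR1, FERMT2 and ADAMTS12 were -0.52, -0.60, -0.64, -0.76 and -0.61, with adjusted p-values from 0.0558 (ANTXR1) to 0.101 (FERMT2).

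The fibrillar collagens did not pass the test. COL1A1 had 708, 1875 and 2890 CPM in CHT and 1572, 2848 and 5459 CPM in IR/CHT, a log2 fold change of 0.87 ± 0.51 (adjusted p = 0.298). COL3A1 had a log2 fold change of -0.21 ± 0.26 (adjusted p = 0.639). Of 33 genes for fibrillar collagens and their processing, none passed in edgeR (1 higher and 1 lower in DESeq2, against 1.9% and 1.41% of all genes), 5 were higher (15.2%, against 11.7% of all genes) and 3 lower (9.09%, against 11.1%) at an unadjusted p under 0.05, and the median was 0.20. The crosslinking enzyme LOX had a log2 fold change of -0.82 ± 0.24 (adjusted p = 0.0763). Of 40 genes of TGF-beta and BMP signalling none passed in edgeR (1 higher and 2 lower in DESeq2). The list had 4 genes higher (10%, against 11.7% of all genes) and 11 lower (27.5%, against 11.1%) at an unadjusted p under 0.05. TGFB2 stood at -0.77 ± 0.21 (adjusted p = 0.0692).

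No gene of the macrophage, neutrophil degranulation, MHC class II, cytokine or lipid handling lists was a DEG with edgeR, while their log2 fold changes lay mostly above 0. DESeq2 on the same libraries called 2 macrophage markers and 2 lipid handling genes higher, 2 cytokine genes higher and 1 lower, and no neutrophil or MHC class II gene, against 1.9% of all genes higher and 1.41% lower. Among all genes, 51.7% had a log2 fold change above 0 and 11.7% an unadjusted p under 0.05 in the higher direction. Of 16 macrophage markers tested, 15 were above 0 and 6 had an unadjusted p under 0.05, with a median of 0.66. CD163, a scavenger receptor of macrophages, had 10.1, 21.7 and 28.5 CPM in CHT and 29.9, 38.1 and 81.1 CPM in IR/CHT. These groups did not overlap, and the log2 fold change of 1.17 ± 0.34 had an adjusted p of 0.0799. SIGLEC1, another macrophage receptor, stood at 1.58 ± 0.39 (adjusted p = 0.051). CD68, the general macrophage marker, had 126.6, 198.7 and 262.6 CPM in CHT and 145.1, 273.5 and 595.1 CPM in IR/CHT, with the highest value in L566, and its log2 fold change was 0.64 ± 0.38 (adjusted p = 0.313). In Ctrl its highest value was 17.0 CPM.

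All 29 genes tested for neutrophil degranulation and the oxidase had a log2 fold change above 0, against 51.7% of all genes, with a median of 0.79. Among them, 10 had an unadjusted p under 0.05 in the higher direction, against 11.7% of all genes, and these 2 shares apply to the lists below as well. Several of them, such as TYROBP and CD14, are also expressed by macrophages. S100A8, a listed neutrophil marker, had at most 0.378 CPM in CHT, 2.66 CPM in L566 and at most 1.21 CPM in the other IR/CHT libraries. Its log2 fold change was 2.22 ± 0.85 (adjusted p = 0.142). Of 12 neutrophil markers found, 4 were tested, all 4 were above 0 and 2 had an unadjusted p under 0.05, with a median of 1.30 that was 1.05 without L566 and L580, where none had such a p. The 8 MHC class II genes were all above 0, with a median of 0.71 and 3 at an unadjusted p under 0.05. Of 30 genes for LXR targets and lipid handling, 29 were above 0, 12 had an unadjusted p under 0.05, and the median was 0.58. CD36, the receptor through which macrophages take up oxidized lipoprotein, had 14.1, 31.7 and 40.8 CPM in CHT and 43.8, 86.2 and 116 CPM in IR/CHT without overlap, a log2 fold change of 1.46 ± 0.43 (adjusted p = 0.0844). CD36 is also expressed by fat cells. Of 18 adipocyte markers, 11 were found and 9 tested, 8 of the 9 lay above 0, 2 had an unadjusted p under 0.05, none was a DEG with edgeR and 2 rose with DESeq2 (1.9% of all genes), with a median of 1.05 (0.81 without L566 and L580). ADIPOQ, the adipokine that defines fat cells, had a log2 fold change of -0.06, UCP1 had no read in any CHT library and RETN none in any IR/CHT library. The adipocyte level ran from 1.37 to 3.78 in CHT and from 2.36 to 4.35 in IR/CHT, and its part in the lipid values was not tested.

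These shares were smaller without L566 and L580. The counts at an unadjusted p under 0.05 were then 2 of 16 macrophage markers, 1 of 29 neutrophil genes, none of 8 MHC class II genes and 5 of 30 lipid genes. The medians were 0.42, 0.62, 0.56 and 0.39. The share of all genes at such a p was also smaller, 2351 of 14852 in either direction, against 3370 of 14777 in the main fit. With the heart muscle level as a covariate in all 13 libraries, the medians were 0.326, 0.465, 0.414 and 0.278. With the macrophage level as a covariate the medians of the neutrophil, MHC class II and lipid lists were 0.039, 0.119 and 0.148. None, none and 1 of their genes then had an unadjusted p under 0.05 in the higher direction. With the smooth muscle level the medians were 0.104, 0.215 and 0.157, with 1, none and 2 such genes. Over all 14777 genes, 1174 (macrophage level) and 1162 (smooth muscle level) had such a p in either direction. CD14 of the neutrophil list and MSR1 of the lipid list are part of the macrophage level. Endothelial markers had a median of 0.20, and none of 11 had an unadjusted p under 0.05. In the IR/CHT library L579 the endothelial level was 4.03, against 5.23 to 5.57 in the other 6.

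**Figure D4:**
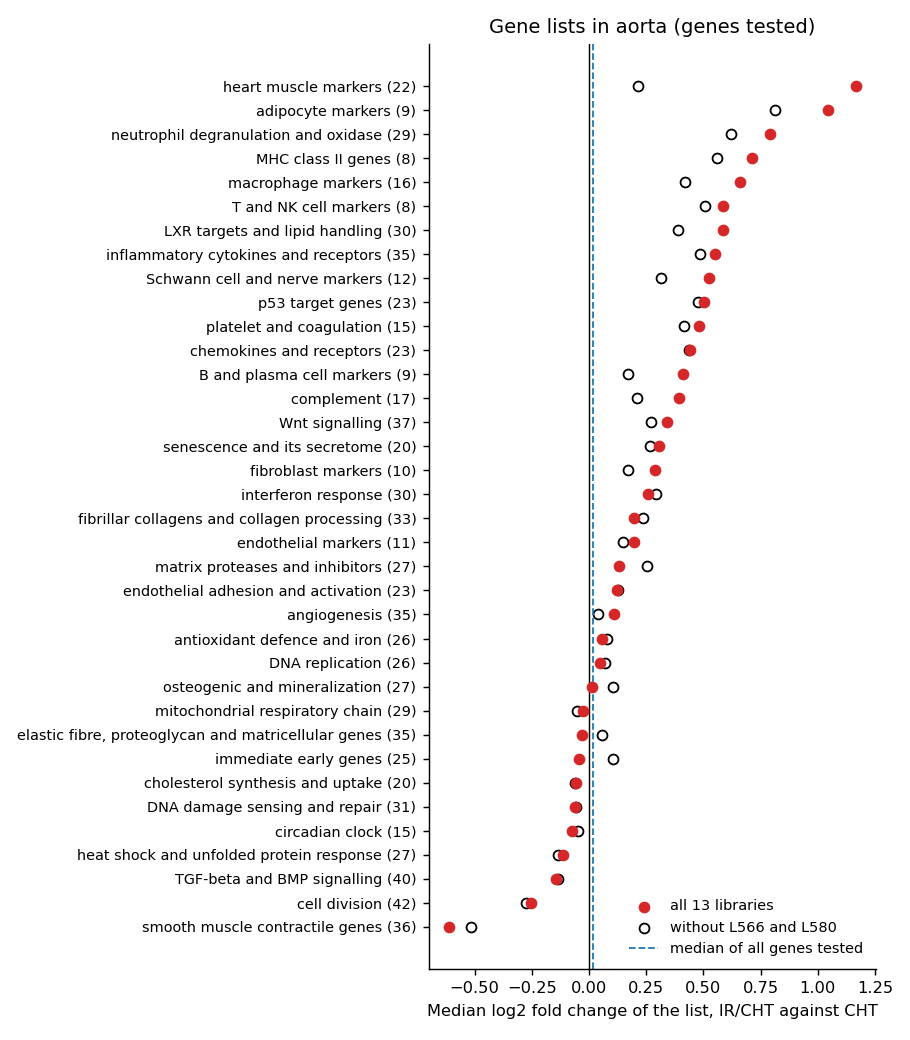
Median log2 fold change of IR/CHT against CHT for gene lists with 8 or more genes tested, with the number tested in parentheses. Filled points are from all 13 libraries, open points are without L566 and L580, and the heart muscle median moves most, from 1.17 to 0.21, while the p53 median stays near 0.5 and the smooth muscle contractile median near -0.6 to -0.5.

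Among clock genes, PER2 rose after irradiation from a level that was below Ctrl in CHT. PER2, a repressor of the circadian loop, had 1.55, 1.79 and 4.71 CPM in CHT and 5.43, 9.46 and 14.8 CPM in IR/CHT, and rose by 2.15 ± 0.49 (adjusted p = 0.0377). Its Ctrl libraries had 5.47, 11.1 and 21.5 CPM, so that PER2 was 2.51 lower on the log2 scale in CHT than in Ctrl (adjusted p = 0.000416), and the difference of IR/CHT from Ctrl was -0.36 (adjusted p = 0.518). PER2 lost its call without L566, where the log2 fold change was 2.16 (adjusted p = 0.0796), and without L566 and L580, where it was 2.29 (adjusted p = 0.103). PER1, its paralog, had 10.9, 14.2 and 30.9 CPM in CHT, 27.3, 56.0 and 76.3 CPM in IR/CHT and a log2 fold change of 1.53 ± 0.39 (adjusted p = 0.0548).

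The other clock genes were named after their values were seen. TEF, a transcription factor driven by the clock, had 4.03 to 14.4 CPM in CHT and 15.6 to 35.2 CPM in IR/CHT, without overlap (adjusted p = 0.0673). The activators of the loop lay the other way, with 13.9, 18.8 and 26.5 CPM in CHT and 4.70, 6.16 and 14.7 CPM in IR/CHT for ARNTL (log2 fold change -1.41 ± 0.54, adjusted p = 0.141) and a log2 fold change of -1.08 ± 0.43 for NPAS2 (adjusted p = 0.15). Of 15 clock genes tested, 1 rose with edgeR, against 0.162% of all genes, and 3 with DESeq2, against 1.9%. At an unadjusted p under 0.05, 3 were higher and 3 lower, against 11.7% and 11.1% of all genes. Without L566 and L580, none was a DEG, and 3 were again higher and 3 lower at an unadjusted p under 0.05. Over all genes in that fit, 2351 of 14852 had such a p in either direction. The hour of dissection is not given in the sources used here. FKBP5, a chaperone partner induced by glucocorticoids, was also named after its values were seen. It rose by 1.32 ± 0.32 (adjusted p = 0.0452), from 15.6 to 49.2 CPM in CHT to 28.1 to 101 CPM, and its adjusted p was 0.0796 without L566.

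**Figure D5:**
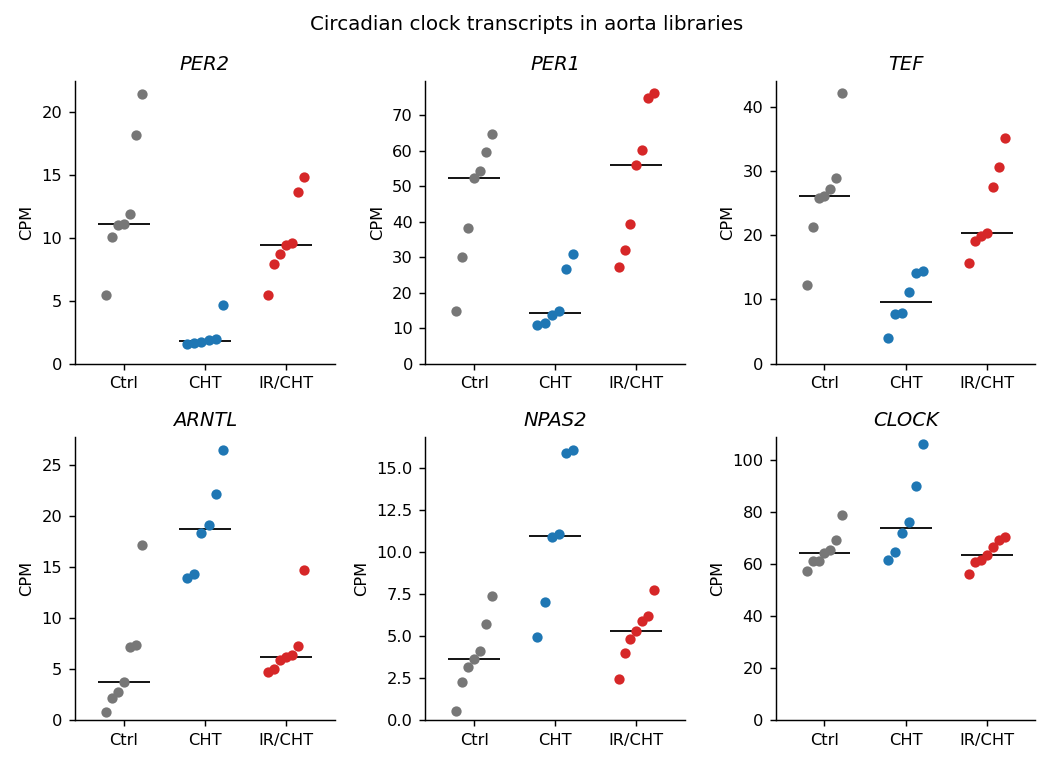
CPM of the clock genes PER2, PER1, TEF, ARNTL, NPAS2 and CLOCK in the 7 Ctrl, 6 CHT and 7 IR/CHT aorta libraries, 1 point per library, with the median as a line. The CHT medians of PER2, PER1 and TEF lie below both other groups, and those of ARNTL and NPAS2 above both.

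ALB, serum albumin of the liver, had 0.422 to 3.47 CPM in CHT and at most 0.0481 CPM in IR/CHT, where every library was at or under 3 counts. Set against a floor of 3 counts per library, it was at least 11.7-fold lower. CR2, a complement receptor of B cells and follicular dendritic cells, had 1.03, 3.32 and 7.25 CPM in CHT and 0.0872, 0.593 and 1.55 CPM in IR/CHT, and fell by 2.36 ± 0.53 (adjusted p = 0.0328). It was the 1 DEG among 17 complement genes, 9 B and plasma cell markers and 4 thymus and lymph node markers, whose medians were 0.39, 0.41 and -0.36 (0.433% of all genes fell with edgeR). The locus of the microRNA hairpin ocu-mir-100 had 1.28, 2.35 and 4.72 CPM in CHT and 0.131, 0.573 and 0.862 CPM in IR/CHT, and fell by 2.23 ± 0.42 (adjusted p = 0.0204). These are reads of total RNA on the locus, and they do not measure the mature microRNA. GPX7, a peroxidase of the endoplasmic reticulum, fell by 0.62 ± 0.13 (adjusted p = 0.0296) and was the 1 DEG among 26 genes of antioxidant defence and iron, whose median was 0.06. NAAA, a lysosomal amidase of lipid signals, rose by 0.73 ± 0.17 (adjusted p = 0.0367). Without L566, the adjusted p-values of ALB, CR2, ocu-mir-100, GPX7 and NAAA were 0.0558, 0.0796, 0.0558, 0.0796 and 0.0854.

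Genes for mineralization and inflammation whose proteins are often followed in such lesions did not pass. SPP1, osteopontin, had 285, 423 and 793 CPM in CHT and 407, 750 and 1111 CPM in IR/CHT, a log2 fold change of 0.52 ± 0.57 (adjusted p = 0.593). RUNX2, the osteoblast transcription factor, had at most 3.46 CPM in CHT and 4.68 CPM in IR/CHT, with a log2 fold change of 0.49 ± 0.75 (adjusted p = 0.708). ALPL, the bone alkaline phosphatase, had medians of 2.56 and 3.07 CPM and a log2 fold change of -0.13 ± 0.78 (adjusted p = 0.934). IL1B and DKK1 had medians under 1 CPM in both groups, and TNF had medians of 1.18 and 1.87 CPM. Their adjusted p-values were 0.389 for IL1B, 0.292 for DKK1 and 0.89 for TNF. IL6 was not found by symbol. Of 27 osteogenic genes and of 42 cell division genes none passed in edgeR, and DESeq2 called 2 osteogenic genes lower, against 1.41% of all genes, and no cell division gene. At an unadjusted p under 0.05 in edgeR, 3 osteogenic genes were higher and 5 lower, and no cell division gene was higher and 2 were lower, against 11.7% and 11.1% of all genes. The median of the cell division list was -0.25, 10 of its 42 log2 fold changes lay above 0 (51.7% of all genes), and its level was 2.16 to 3.57 in CHT and 1.76 to 3.03 in IR/CHT.

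The same contrast was set against the aortic valve of the same rabbits, which lay in the irradiated field. In 1 model of both tissues with 16125 genes, 999 (6.2%) differed in their change between aorta and valve at an adjusted p under 0.05, of which 695 (4.31%) had the higher change in aorta and 304 (1.89%) the lower. In the valve alone, 1408 genes (8.73%) rose and 2094 (13%) fell. All 6 CHT valve libraries were on plate 1 and 3 of 7 IR/CHT valve libraries on plate 2, and with the valve libraries of plate 1 alone 1594 genes differed.

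For no p53 target did the difference between the tissues pass the test. Of 23, 9 rose in the valve, against 8.73% of all genes, and the median log2 fold change was 0.57 in the valve (-0.07 for all genes) and 0.50 in the aorta (0.02 for all genes). For DDB2 the change in aorta minus that in valve was -0.16 ± 0.20 (adjusted p = 0.726), and for XPC it was -0.01 ± 0.26 (adjusted p = 0.993). PDE3A and GPC4 fell in both tissues, with log2 fold changes in the valve of -1.31 (PDE3A) and -0.80 (GPC4) and adjusted p-values of the difference of 0.383 and 0.917.

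Of 36 contractile genes, 12 fell and 3 rose in the valve, against 13% and 8.73% of all genes, the median log2 fold change was -0.40 in the valve and -0.63 in the aorta, and the difference between the tissues passed for 3 (ACTG2, MYH11 and MRTFB), against 6.2% of all genes. ACTG2 fell in the aorta and rose in the valve by 1.68 (8.56 to 25.2 CPM in CHT valves, 24.0 to 94.9 CPM in IR/CHT valves). Its difference was -2.73 ± 0.44 (adjusted p = 9.33e-05, and 0.00238 with the rabbit as a block). MYH11 rose in the valve by 1.48 and had a log2 fold change of -0.73 in the aorta in this fit. Its difference was -2.21 ± 0.70 (adjusted p = 0.0446, and 0.0191 with the rabbit as a block). STARD13 had a log2 fold change of -0.33 in the valve, and its difference of -0.52 ± 0.15 had an adjusted p of 0.0267 (0.0541 with the rabbit as a block). TBX20, a transcription factor of the developing heart and its valves, had a log2 fold change of 1.38 in the aorta in this fit (adjusted p = 0.0673 among the aorta libraries). It fell by 1.64 in the valve, a difference of 3.02 ± 0.44 (adjusted p = 3.64e-05, and 0.000149 with the rabbit as a block). The PER2 difference of 1.93 ± 0.85 did not pass (adjusted p = 0.186).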

How the data were processed

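RNA-seq was done by the authors on total RNA of aorta rings, with 10 ng of RNA per stranded total RNA library. Per the labels and the study's methods, base calls were converted with bcl2fastq 2.20 and reads were aligned to OryCun 2.0. The deposited values are raw counts of read pairs per Ensembl gene, 1 table per plate, with no normalization. The study's methods name the nf-core rnaseq pipeline with defaults apart from trimming and state no setting for strand, so that reads of overlapping genes on opposite strands may not be told apart.

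The 27 aorta libraries of 4 treatments were fitted together with edgeR 4.0.16 (R 4.3.3): TMM scaling, filterByExpr and the robust quasi-likelihood F test, two-sided, with Benjamini-Hochberg adjustment over all genes tested. Every adjusted p in the text comes from this test unless another tool is named. DEGs had an adjusted p under 0.05 and a fold change over 1.5. The test of aorta against valve was the interaction in 1 edgeR fit of both tissues. The level of a gene list is its mean log2 CPM with a prior count of 2. Errors are standard errors (SE) of the log2 fold change. Alternatives included DESeq2 1.42.0, limma 3.58.1, other scaling and filters, covariates and leaving out each library.

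Genes were named by a rule. It took the 15 higher and 15 lower with a symbol and the smallest p, and the 2 of each list with the smallest p. It also took the 2 of each cell type list with the highest level, and the DEGs and interaction genes with the smallest p. A fixed set was added for p53, matrix, smooth muscle, macrophages, mineralization, heart muscle and cytokines. That set included DKK1 and IL6, whose proteins the study measured. The comparison and the gene lists were chosen with earlier results of these data known, so that no list is independent evidence. The labels name separate rabbits as replicates.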

Additional observations from a re-analysis of the deposited data

Results flagged for a closer look

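Among 284 groups of 6 or 7 values examined, 30 had 1 library far from the others by Dixon's criterion, which chance alone meets in about 1 of 20 groups. In IR/CHT, library L566 accounted for 14 of them. It was the highest of its group for MYH7 (2123 CPM), ACTC1 (177.5), MYL2 (152.4), MYOM2 (99.43), MYBPC3 (95.59), NRAP (93.2), MYL4 (89.14), ACTA1 (76.24), MB (64.99), MYL3 (58.5) and S100A8 (2.659), and for the heart muscle marker level (6.17 mean log2 CPM). It was the lowest for ACTG2 (100.7 CPM) and for the smooth muscle marker level (8.892).

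Library L579 of IR/CHT was the lowest of its group in the levels of endothelial markers (4.034 mean log2 CPM), endothelial adhesion and activation (4.367), platelet and coagulation genes (3.142), B and plasma cell markers (1.746) and mast cell markers (-0.517), and the highest for RYR2 (323.3 CPM). MMP1 was highest in L567 (38.2 CPM) and ARNTL in L582 (14.73 CPM).

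In CHT, library L559 was the highest for PER2 (4.708 CPM), MYL3 (1.604 CPM) and SIGLEC1 (19.3 CPM), L560 for ITGA1 (339.0 CPM), L573 for FKBP5 (49.21 CPM) and L561 for DKK1 (1.256 CPM). L573 was also the lowest in the levels of TGF-beta and BMP signalling (4.618) and of chemokines and receptors (0.678).

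The change with irradiation differed between aorta and aortic valve for 999 genes, 20 of them named genes, by the interaction test in edgeR. The differences of log2 fold changes, aorta minus valve, were positive for the heart muscle genes MYH7 (6.95), NRAP (6.90), MYL2 (6.87), MYOM2 (6.63), MB (5.29), MYL3 (4.83) and MYBPC3 (4.34), which were high in L566, and also for TBX20 (3.02) and ACACB (1.64). They were negative for CR2 (-3.12), ACTG2 (-2.73), MYH11 (-2.21), EPHA5 (-1.69), RASL11A (-1.42), LOX (-1.23), SEMA3C (-0.99), DCBLD2 (-0.82), CAT (-0.80), PDK3 (-0.52) and STARD13 (-0.52).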

How the results depend on the processing

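The number of DEGs between IR/CHT and CHT, 88 with 27.3% higher, changed by more than 1.5 times under most alternatives. It was 535 (57.4% higher) with DESeq2 on 27 libraries, 1045 (75.6%) with DESeq2 on 13, 296 (39.9%) with limma voom and quality weights, 53 (22.6%) without a filter on low counts, 24 (37.5%) with edgeR on 13 libraries, 357 (44.3%) with edgeR on 5 tissues and plate, and 449 (46.5%) at an adjusted p under 0.1. With the heart muscle level as a covariate it was 0 (1059 genes at an unadjusted p under 0.05), and tested against a fold of 1.5 it was also 0. Alternatives chosen after seeing the data gave 4 without L566 and L580, 2 with the macrophage level and 3 with the smooth muscle level as a covariate. Leaving out 1 library gave 2 to 661 DEGs, with 0 to 47.4% higher. The cause was not tested. Of 2374 values of 99 named genes, 1735 kept direction and side of the threshold, 496 lost the call, 119 gained it and 24 changed sign. The last were CD68 (-0.172), CSF1R (-0.004), HLA-DMA (-0.015), SPP1 (-0.022), RUNX2 (-0.541) and PECAM1 (-0.365) with the macrophage level, CD68 (-0.108), RUNX2 (-0.402) and PECAM1 (-0.34) with the smooth muscle level, ALPL (0.455) and TNF (-0.096) with limma, TNF (-0.067) with the heart muscle level, and TNF (-0.093) and PECAM1 (-0.005) without L566 and L580. CD68 and CSF1R are themselves part of the macrophage level, so that their values in that fit were partly fixed in advance. Without 1 library, the log2 fold change ran from -0.388 to 0.446 for ALPL and from -0.033 to 0.536 for TNF. For PECAM1 it ran from -0.177 to 0.242. The count of genes whose change differed between aorta and valve, 999, was 1594 with the valve libraries of plate 1 alone and 694 to 1191 without 1 library. No paired analysis was possible because the rabbits of IR/CHT and CHT differ and share no replicate number. Aorta and valve of the same rabbit, with a median correlation of 0.209 of their deviations, allowed a rabbit block, which gave 1036 genes.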
